A study of Homo sapiens with 3 samples.

Results

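Messenger RNAs of the nuclear pore complex and of the factors that carry cargo through it were followed in PLC, an established cell line of human hepatocellular carcinoma. The set holds 44 genes, taken by name from a fixed list of nucleoporins, importins, exportins, Ran cycle proteins and the mRNA exporter NXF1, out of 55868 gene names in the deposited tables. All 44 names were found in every library, and 43 had a mean of at least 1 FPKM (sequenced fragments per kilobase of a transcript, corrected for library depth) over the libraries. There were 3 libraries, 1 per group, each from cells harvested 48 hours after infection with hairpin viruses. Control cells carried a non-targeting hairpin. The shDIS3L2 cells carried hairpins to the RNA-degrading enzyme DIS3L2, and the shHNRNPU cells hairpins to the nuclear RNA-binding protein hnRNP U. No genetic change other than the hairpins is named in the labels, and how many hairpins each target received is not stated there. The study concerns DIS3L2 and splicing mediated by hnRNP U in liver cancer.

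The nuclear pore complex is a ring-shaped channel through the nuclear envelope, built from many copies of a set of proteins called nucleoporins. Outer and inner rings form its scaffold, membrane proteins anchor it, nucleoporins with phenylalanine-glycine repeats fill the channel, and filaments face the cytoplasm, and a basket faces the nucleus. Importins and exportins carry proteins and small RNAs through the channel, with direction set by the small GTPase Ran, whereas bulk mRNA leaves with NXF1. Dividing cells such as tumour lines rebuild these pores at every mitosis.

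With 1 library per group there were no replicates, so the differences have no check by replicates and carry no p-value. A range in parentheses after an FPKM is the interval the authors deposited. It describes how well 1 library fixes the value, and says nothing of the spread between cultures. The log2 ratios are of FPKM plus 1, given ± a standard error worked out from those intervals. To be called, a gene needed a log2 ratio of 1 or more (higher), or of -1 or less (lower), and intervals that did not overlap. Both knockdowns were compared with the same control library, so the comparisons are not independent. RNA came from whole cultures, in which fewer cells of a type and less RNA per cell cannot be told apart.

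The targeted genes were lowest in their own knockdowns. In control, shDIS3L2 and shHNRNPU, DIS3L2 was at 7.61, 3.23 and 11.2 FPKM and HNRNPU at 178, 232 and 33.5 FPKM, both within merged loci. Depth, worked out from the FPKM, length and interval of 93 to 109 single-exon genes per library, was 23.0, 18.3 and 20.1 M (mega) fragments. All 8 hepatocyte markers were measured, with a summed level of 13102, 3198 and 7762 FPKM. Most of that sum was SERPINA1 alone, at 11439, 2865 and 6710 FPKM, and albumin (ALB) was at 11.8, 0.856 and 5.21 FPKM. In shDIS3L2, 5 of the 8 were called lower and 1, FGB, higher, and in shHNRNPU 3 lower and 0 higher. FGB was at 6.21, 17.9 and 1.93 FPKM. The 6 fibroblast and stellate cell markers summed to 0.956 to 1.41 FPKM and the 3 matched endothelial markers to at most 0.0423 FPKM. Of 5 blood cell markers, CD3E and HBB were listed at 0 in every library. CD14 was at 0.197, 0.704 and 0.292 FPKM, and PTPRC at 0.442 FPKM in shHNRNPU and at 0 in the others. CD68 could not be read because its locus was merged with EIF4A1. Of 10 proliferation genes, 1 was lower and 0 higher in shDIS3L2 (median log2 ratio -0.23), and 2, TOP2A and RRM2, were higher and 0 lower in shHNRNPU (median 0.31). The part of the hepatocyte and proliferation genes in the ratios below was not tested.

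Most pore and transport genes differed little between the libraries. In shDIS3L2, 3 of 43 were called higher, the basket filament gene TPR, the channel gene NUP98 and the scaffold gene NUP160, and 0 were called lower. Over all 11787 genes with a mean of at least 1 FPKM, 8.95% were called higher and 7.58% lower, against 6.98% and 0 of the members. In shHNRNPU, 0 of 43 were called in either direction, against 8.32% higher and 7.46% lower over all genes. Set directly against shDIS3L2, shHNRNPU had 0 members higher and 2 lower, NUP98 and the tRNA exporter gene XPOT, against 10.2% and 10.5% of all genes. All 43 members stayed when genes listed at 0 in any library were left out, but the shares over all genes fell. Of the 10965 genes that remained, 7.41% were called higher and 5.63% lower in shDIS3L2, and 6.89% and 5.51% in shHNRNPU. Between the knockdowns these shares were 8.61% and 8.76%. The 3 genes called in shDIS3L2 each sit in a locus that was assembled together with another gene name, and among the 26 members with 1 name and the same bounds in all libraries, 0 were called there, against 8.88% higher and 6.67% lower of the 6736 such genes.

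Smaller differences were common, as they were in all genes. In shDIS3L2, 17 members had an interval wholly above that of control and 9 wholly below, which is 39.5% and 20.9% of them, against 32.7% and 25.3% of all genes. In shHNRNPU, 21 lay above and 12 below (48.8% and 27.9%), against 34.9% and 23.4%. Between the knockdowns, 11 lay higher in shHNRNPU and 13 lower (25.6% and 30.2%), against 31.8% and 28.4%. At a mean of at least 5 FPKM, 16 of 42 members lay above and 9 below control in shDIS3L2, against 37.9% and 29.6% of genes, and 20 and 12 in shHNRNPU, against 39.0% and 28.2%. The split in shHNRNPU depended on scaling. After median-of-ratios rescaling it was 12 above and 15 below, against 25.9% and 30.9% of all genes on that scale. In shDIS3L2 the rescaled split was 16 and 11, against 26.9% and 29.9%. NUP35, NUP50, NUP62, NUP98, NUP107, SEC13, IPO8, KPNA1 and KPNA4 no longer lay wholly above control in shHNRNPU after rescaling.

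The median log2 ratio of the members was 0.12 in shDIS3L2 and 0.24 in shHNRNPU, with quartiles of -0.14 and 0.54 and of -0.25 and 0.60. The medians over all genes were 0.09 and 0.12. Rescaling brought those over all genes to 0.00 and -0.03, and the members to 0.0073 and 0.066, so the members lay 0.0092 and 0.092 above all genes on that scale and 0.03 and 0.13 above them as deposited. Between shHNRNPU and shDIS3L2 the members' median was 0.08, against 0.03 over all genes. The members thus spread around all genes rather than moving as a block, and their single ratios reached from -0.92 to 1.52 in shDIS3L2 and from -0.93 to 0.999 in shHNRNPU.

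**Figure D1:**
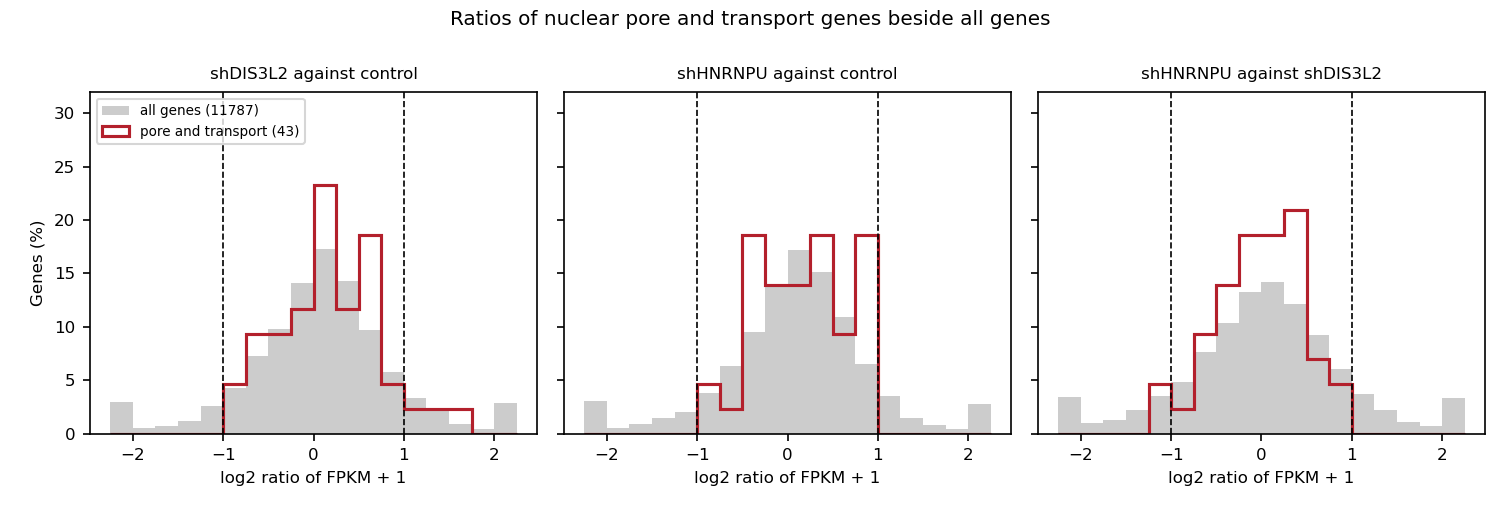
Share of genes (percent, vertical axis) by log2 ratio of FPKM plus 1 (horizontal axis) in the 3 comparisons, with all 11787 genes in grey, the 43 pore and transport genes as a red outline, dashed lines at -1 and 1, and ratios beyond the ends of the axis collected in the outermost bars. The red outlines sit over the middle of the grey bars, and 3, 0 and 2 members pass a dashed line with separate intervals.

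Levels spanned a wide range within each library. In control the median member stood at 17.7 FPKM, above 60.9% of all genes, and values ran from 1.95 FPKM for RANBP2 to 789 for RAN. Sorted by level, 33 of the 42 neighbouring pairs in control had overlapping intervals, so the order of close neighbours was not resolved. In control 12 members were below 10 FPKM, against 2 in shDIS3L2 and 6 in shHNRNPU, and 11, 8 and 8 were at 50 FPKM or more. The control library held the lowest of the 3 values for 21 members, shDIS3L2 for 10 and shHNRNPU for 12. The median over all genes was lowest in control too, at 10.6 FPKM, against 11.4 in shDIS3L2 and 11.7 in shHNRNPU. These counts were made on the values as deposited, without rescaling.

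**Figure D2:**
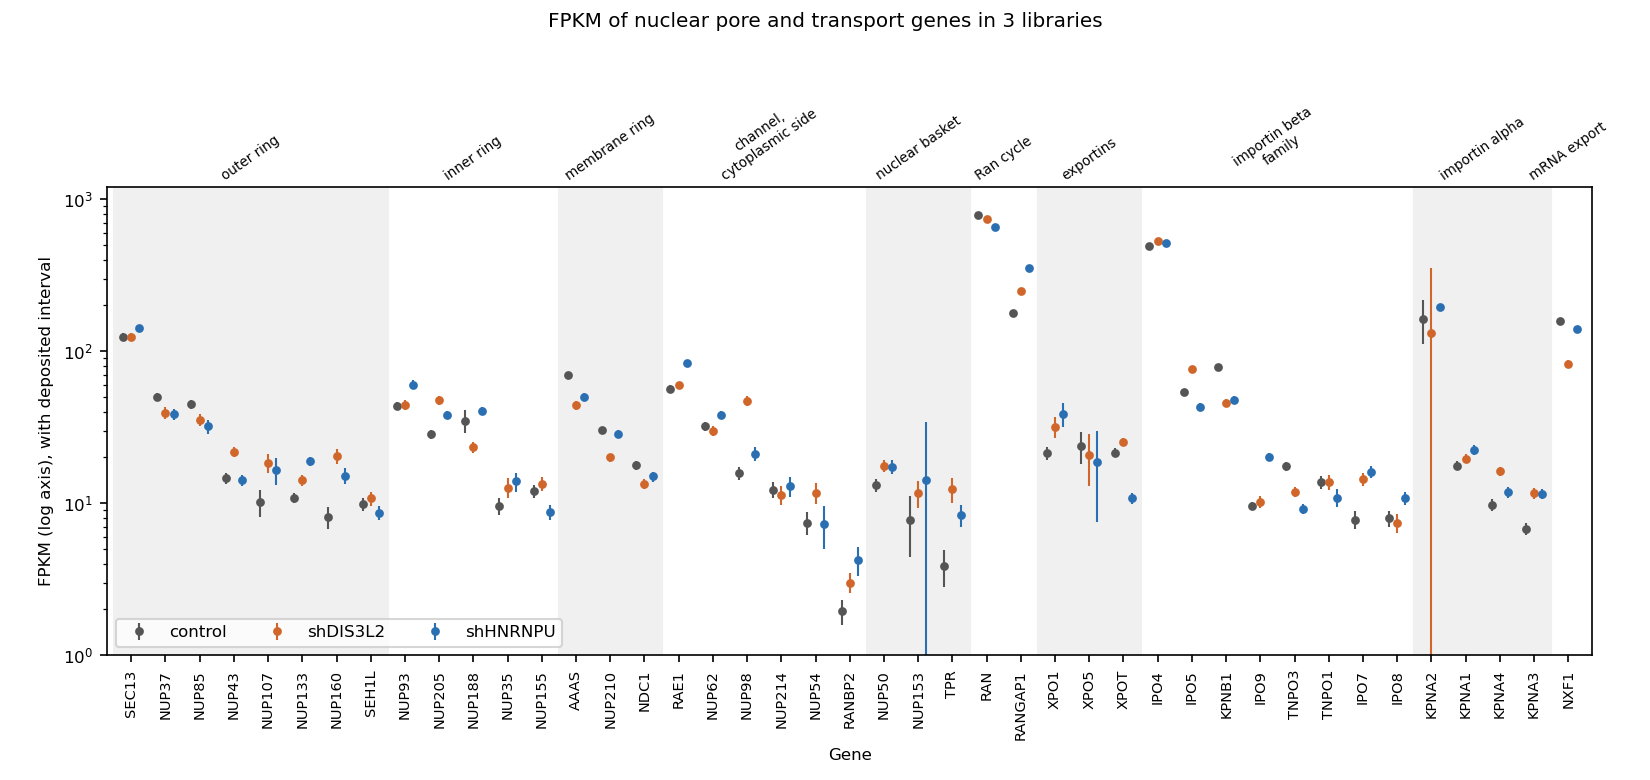
FPKM (logarithmic vertical axis) of the 43 measured genes, grouped by role and ordered within a group by mean level, in control (grey), shDIS3L2 (orange) and shHNRNPU (blue), 1 library each. Bars are the authors' intervals and reach the bottom of the axis where the lower bound is 0, as for KPNA2 in shDIS3L2 and NUP153 in shHNRNPU; RAN is the highest and RANBP2 the lowest gene in all 3 libraries.

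The outer ring, or Y complex, is the scaffold on either face of the pore, and here its genes went different ways. NUP160, a long arm of the Y, stood at 8.08 FPKM (6.74 to 9.41) in control, against 20.4 (18.1 to 22.6) in shDIS3L2, and 15.2 (13.4 to 17.0) in shHNRNPU. No interval overlapped another, and control was lowest. The log2 ratios against control were 1.23 ± 0.13 and 0.84 ± 0.13. On chromosome 11 (hg19, 47799639 to 47870107) its locus was merged with RNA5SP340, a small RNA pseudogene. NUP107, its partner in the stem of the Y, stood at 10.2 FPKM (8.15 to 12.2), 18.4 (15.8 to 21.1) and 16.5 (13.3 to 19.8). As deposited, both knockdowns lay above control and overlapped each other, but shHNRNPU overlapped control after rescaling. Those ratios of 0.80 ± 0.16 and 0.65 ± 0.19 did not reach the size for a call. NUP133, at the foot of the stem, had ratios of 0.36 in shDIS3L2 and 0.74 in shHNRNPU, both with separate intervals.

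The remaining outer ring genes lay on either side of control. NUP85, of the short arm of the Y, stood at 44.8 FPKM (41.6 to 48.1), 35.5 (32.1 to 38.9) and 32.1 (28.7 to 35.5), so that control lay above both knockdowns, with ratios of -0.33 and -0.47. NUP37, a small propeller protein on the Y, had like ratios of -0.34 and -0.37. NUP43, another propeller protein, was high in shDIS3L2 alone, at 14.6 FPKM (13.4 to 15.7), 21.9 (20.3 to 23.5) and 14.3 (13.1 to 15.4). Its locus overlaps PCMT1, which was expressed in all libraries. SEH1L, the lowest of the ring by mean level, stood at 9.85 FPKM (8.87 to 10.8), 10.8 (9.64 to 11.9) and 8.68 (7.74 to 9.61), and neither knockdown was separate from control. SEC13, which also serves in the COPII coat of secretory vesicles, was by far the most abundant at 124 FPKM (118 to 131), 124 (117 to 131) and 141 (134 to 149). Its shHNRNPU interval lay above control as deposited (log2 ratio 0.18), and came to 0.0049 after rescaling. The ring's levels in control thus ran from 8.08 to 124 FPKM.

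Among inner ring genes, whose proteins line the scaffold around the channel, NUP205 had ratios of 0.73 ± 0.07 in shDIS3L2 and 0.42 in shHNRNPU, both with separate intervals. Its relative NUP188 differed in pattern, at 34.9 FPKM (28.9 to 40.9), 23.3 (21.3 to 25.3) and 40.5 (38.1 to 43.0). There shDIS3L2 was lowest (log2 ratio -0.56 ± 0.13 against control) and shHNRNPU overlapped control. The NUP188 locus was merged with PHYHD1. Of expressed loci, DOLK overlapped it in every library, and SH3GLB2, at 27.3 FPKM, in shDIS3L2 alone. The part of this overlap in the NUP188 ratio was not tested. NUP93, which links the ring to the channel, was highest in shHNRNPU at 60.3 FPKM (56.3 to 64.2), against 43.6 (40.9 to 46.4) in control and 44.2 (41.1 to 47.4) in shDIS3L2. NUP155, which contacts the membrane, was lowest in shHNRNPU at 8.73 FPKM (7.73 to 9.74), against 11.97 (10.7 to 13.2) and 13.5 (12.1 to 14.8). Its locus was merged with a second name in the latter pair but not in shHNRNPU. NUP35, which helps tie the ring to the membrane, had ratios of 0.36 and 0.49, of which the second had separate intervals as deposited only.

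The 3 genes of the membrane ring were all lower in shDIS3L2 with separate intervals, none of them past the size for a call. Of all genes, 25.3% lay lower in that way. AAAS, which encodes the ALADIN protein held at the pore by NDC1, stood at 69.3 FPKM (65.2 to 73.3) in control, against 44.0 (41.1 to 46.8) in shDIS3L2, and 49.8 (46.7 to 53.0) in shHNRNPU. Control lay above both, with ratios of -0.64 ± 0.06 and -0.47 ± 0.06. NUP210, a transmembrane glycoprotein, stood at 30.2 FPKM (28.8 to 31.6), 20.0 (18.8 to 21.2) and 28.6 (27.1 to 30.2), low in shDIS3L2 alone. NDC1, which spans the membrane, stood at 17.8 FPKM (16.5 to 19.0), 13.4 (12.4 to 14.5) and 15.02 (13.9 to 16.2), highest in control.

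**Figure D3:**
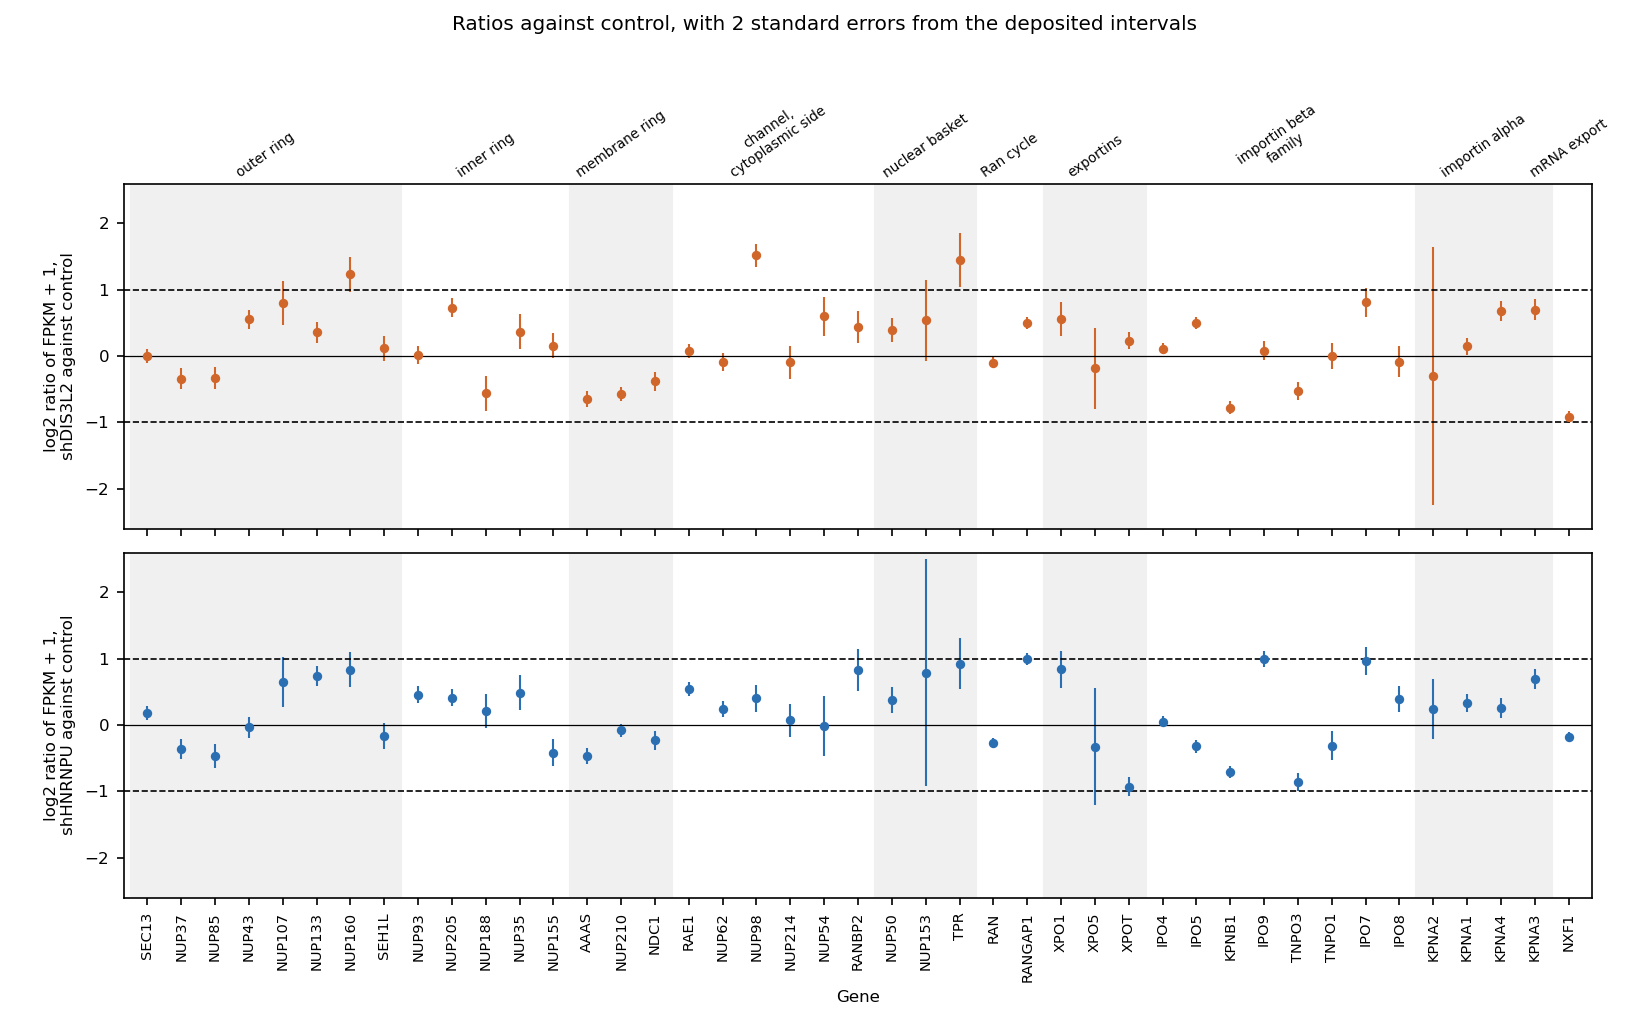
Log2 ratio of FPKM plus 1 against control (vertical axes) for the 43 measured genes in shDIS3L2 (upper) and shHNRNPU (lower), with bars of 2 standard errors from the deposited intervals and dashed lines at -1 and 1. NUP160, NUP98 and TPR lie above the upper dashed line in shDIS3L2, and in shHNRNPU IPO9 and RANGAP1 lie just under it.

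In the channel and on the cytoplasmic side, NUP98 had the highest log2 ratio of all members in shDIS3L2 at the pseudocount of 1, although TPR was higher by FPKM alone (3.18 against 2.99 times control) and with a pseudocount of 0.1 (1.64 against 1.57). NUP98 carries phenylalanine-glycine repeats, and its gene also yields the scaffold protein NUP96 from the same precursor. It stood at 15.8 FPKM (14.1 to 17.4) in control, against 47.2 (43.8 to 50.5) in shDIS3L2, and 21.2 (18.9 to 23.5) in shHNRNPU. The shDIS3L2 library stood far above both others, with a log2 ratio of 1.52 ± 0.09 against control and shHNRNPU at -1.12 ± 0.09 against shDIS3L2. In shHNRNPU the ratio against control was 0.40 ± 0.10. On chromosome 11 (hg19, 3686817 to 3819022) its locus was merged with CHRNA10, and these values do not separate the 2 names. NUP54, a partner of NUP62 in the channel, was likewise high in shDIS3L2, at 7.42 FPKM (6.15 to 8.70), 11.7 (9.94 to 13.6) and 7.31 (5.03 to 9.58).

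RANBP2, the giant protein of the cytoplasmic filaments, had the lowest level of all, 1.95 FPKM (1.59 to 2.30), 3.01 (2.55 to 3.46) and 4.24 (3.31 to 5.17). Both knockdowns lay above control, by 0.44 ± 0.12 and 0.83 ± 0.16. The FPKM of shHNRNPU was 2.18 times that of control, more than the log2 ratio shows because of the added 1. Near-identical copies of RANBP2, the RGPD genes, can share its reads, so its values are uncertain. RAE1, which binds NUP98 and takes part in mRNA export, was highest in shHNRNPU at 83.2 FPKM (79.0 to 87.5), against 56.7 (53.5 to 60.0) and 59.7 (56.6 to 62.8). NUP62, of the central channel, and NUP214, of the cytoplasmic side, had ratios between -0.10 and 0.25. The NUP62 locus joined 5 names, IL4I1 and SIGLEC11 among them, and overlapped ATF5, so its value cannot be read as that of NUP62 alone. NUP88 was listed at 0 in all 3 libraries, which can be a failed estimate, and so entered no comparison.

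The nuclear basket hangs from the inner face of the pore. TPR, its filament protein, stood at 3.89 FPKM (2.82 to 4.96) in control, against 12.3 (10.1 to 14.6) in shDIS3L2, and 8.30 (6.93 to 9.68) in shHNRNPU. All intervals were separate and control was lowest, with ratios of 1.45 ± 0.20 and 0.93 ± 0.19. The FPKM of the knockdowns was 3.18 and 2.14 times that of control, and with a pseudocount of 0.1 TPR was called in shHNRNPU too. On chromosome 1 (hg19, 186280784 to 186344825) its locus was merged with RNU6-1240P, a pseudogene of a small nuclear RNA. NUP50, a mobile basket protein that helps release cargo from importins, stood at 13.2 FPKM (11.8 to 14.5), 17.5 (15.98 to 19.1) and 17.4 (15.6 to 19.1). As deposited it lay above control in both knockdowns, by 0.39 and 0.38, but in shHNRNPU it overlapped control after rescaling. NUP153 had ratios of 0.54 and 0.79, but its interval in shHNRNPU reached from 0 to 34.1 FPKM and overlapped the others.

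The Ran cycle gives transport its direction, and its 2 genes differed in opposite ways in shHNRNPU. RAN, the GTPase, was the most abundant member and has many processed pseudogenes that can share its reads. It stood at 789 FPKM (758 to 819.5) in control, against 737 (707 to 767) in shDIS3L2, and 653 (630.0 to 676) in shHNRNPU, where it was lower by a ratio of -0.27 ± 0.04. RANGAP1, which makes Ran hydrolyse its GTP on the cytoplasmic side, stood at 177 FPKM (169 to 185), 250.3 (239 to 262) and 355 (339 to 370). All libraries were separate, with control lowest and shHNRNPU highest. Its log2 ratio in shHNRNPU, 0.995 ± 0.04, lay just under the size for a call.

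Of the exportins, XPO1, the main exporter of proteins with a leucine-rich signal, stood at 21.3 FPKM (19.3 to 23.3), 31.9 (26.9 to 37.0) and 38.9 (31.9 to 45.8). Both knockdowns lay above control, by 0.56 ± 0.13 and 0.84 ± 0.14, and overlapped each other. XPOT, which exports tRNA, went the other way in shHNRNPU, at 21.5 FPKM (20.0 to 23.0), 25.4 (23.98 to 26.9) and 10.8 (9.94 to 11.7). It was lower there by -0.93 ± 0.07 against control and by -1.16 ± 0.07 against shDIS3L2, and after rescaling it was called lower against control as well (-1.09). Its locus, on chromosome 12 (hg19, 64798130 to 64844907), had 1 name and the same bounds in every library. XPO5, the exporter of microRNA precursors, overlaps POLR1C and had wide intervals that overlapped in all comparisons.

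The importin beta family brings cargo in. In shHNRNPU, 3 of its 8 members were higher and 4 lower with separate intervals, against 34.9% and 23.4% of all genes. IPO9, an importer of histones and actin, stood at 9.62 FPKM (8.998 to 10.2), 10.2 (9.30 to 11.2) and 20.2 (19.0 to 21.4), high in shHNRNPU alone. Its log2 ratio of 0.999 ± 0.06 missed the size for a call by less than its error. IPO7, an importer of ribosomal proteins among other cargo, stood at 7.78 FPKM (6.73 to 8.83), 14.4 (12.995 to 15.8) and 16.1 (14.6 to 17.6), low in control, with ratios of 0.81 ± 0.11 and 0.96 ± 0.11. With a pseudocount of 0.1, IPO7, IPO9, RANBP2 and TPR were the 4 members called higher in shHNRNPU, against 11.2% of all genes. IPO8, a relative of IPO7 and the lowest of the family by mean level, stood at 7.94 FPKM (6.96 to 8.91), 7.42 (6.41 to 8.43) and 10.7 (9.72 to 11.8). As deposited it lay above control in shHNRNPU only, and after rescaling it overlapped control there.

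KPNB1, or importin beta itself, carries the classical import route together with importin alpha. It stood at 78.9 FPKM (76.2 to 81.7) in control, against 45.6 (42.9 to 48.2) in shDIS3L2, and 48.1 (45.6 to 50.6) in shHNRNPU. Control lay well above both knockdowns, with ratios of -0.78 ± 0.05 and -0.70 ± 0.04. TNPO3, which imports splicing factors of the SR family, stood at 17.5 FPKM (16.4 to 18.6), 11.9 (10.9 to 12.8) and 9.20 (8.45 to 9.95), highest in control and lowest in shHNRNPU. Its ratios were -0.53 ± 0.07 and -0.86 ± 0.07, and the latter came to -1.03 after rescaling. The bounds of its locus differed between the libraries, and in shDIS3L2 alone it overlapped an unnamed locus at 29.5 FPKM. TNPO1, the importer of hnRNP A1 and its like, had ratios of 0.00 and -0.31.

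IPO5, an importer of ribosomal proteins, lay on opposite sides of control, at 53.8 FPKM (51.4 to 56.2), 76.8 (73.4 to 80.1) in shDIS3L2, and 42.9 (40.6 to 45.3) in shHNRNPU. The ratio between the knockdowns was -0.82 ± 0.05. The value under IPO4 could not be read as that gene's level. Its locus joined 8 names, NEDD8 and CHMP4A among them, and stood at 495 FPKM (474 to 515), 535 (511 to 559) and 513 (492 to 535).

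Importin alpha proteins are the adaptors that bind classical nuclear localization signals. KPNA3 stood at 6.79 FPKM (6.18 to 7.40) in control, against 11.7 (10.7 to 12.6) in shDIS3L2, and 11.6 (10.7 to 12.5) in shHNRNPU. Both knockdowns lay above control, by 0.70 ± 0.08 and 0.69 ± 0.08. KPNA4, its closest relative, had ratios of 0.68 and 0.26, and KPNA1 of 0.15 and 0.33. KPNA2, the most abundant of the adaptors and one known to follow cell division, stood at 164 FPKM (112 to 216), 133 (0 to 352) and 194 (185 to 204). Those intervals overlapped throughout, so no difference of KPNA2 was detectable. As deposited, the adaptor genes KPNA3 and KPNA4 were thus above control in both knockdowns while the gene of their carrier, KPNB1, was below it. After rescaling, the interval of KPNA4 in shHNRNPU overlapped that of control.

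NXF1, the export receptor of bulk mRNA, stood at 157 FPKM (151 to 164) in control, against 82.6 (78.3 to 87.0) in shDIS3L2, and 139 (133 to 145) in shHNRNPU. It was low in shDIS3L2, with the lowest ratio of all members there, -0.92 ± 0.05, which came to -1.04 after rescaling and then passed the size for a call. Its assembled locus on chromosome 11 joined NXF1 and STX5 in every library, but took in TMEM223 and a further name only in control and shHNRNPU, so that this ratio compares unlike loci.

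**Figure D4:**
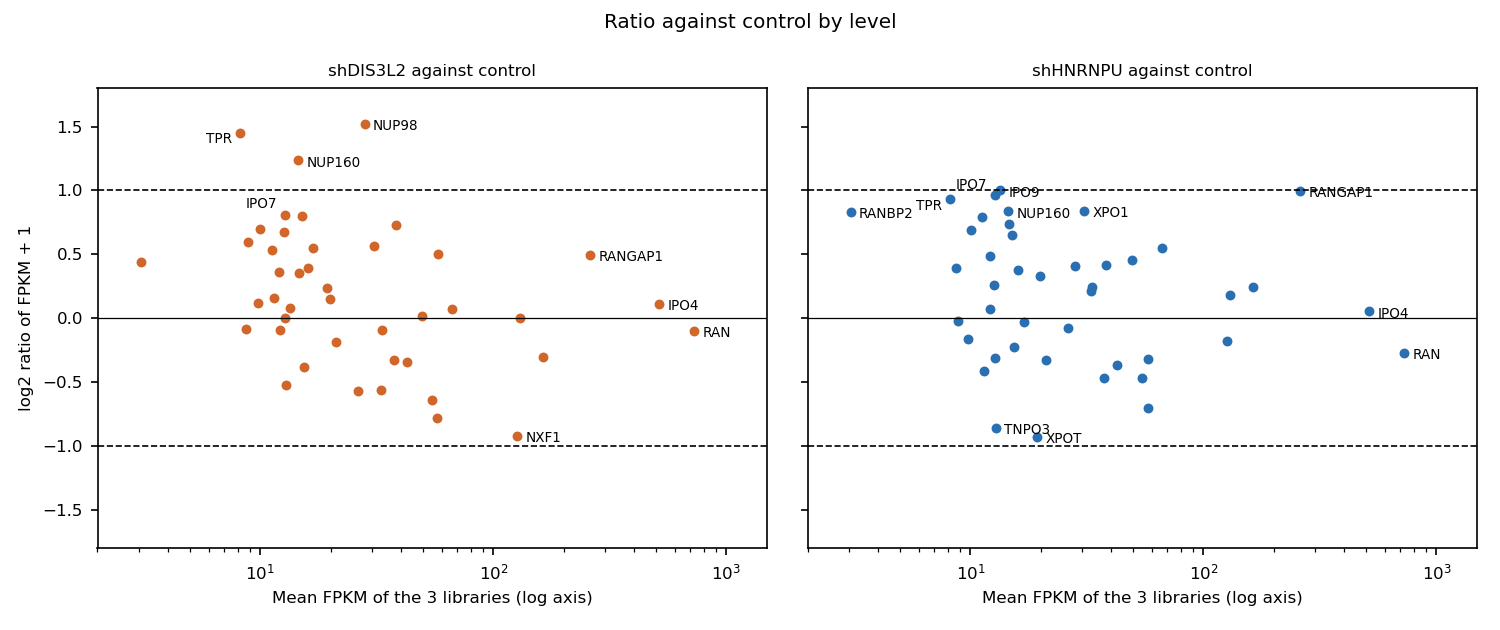
Log2 ratio of FPKM plus 1 against control (vertical axis) by mean FPKM of the 3 libraries (logarithmic horizontal axis) for the 43 measured genes in shDIS3L2 (left) and shHNRNPU (right), with names for genes at a ratio of at least 0.8 to either side or a mean above 200 FPKM. The genes furthest above 0 in shDIS3L2, NUP98, TPR and NUP160, have mean levels of 28.0, 8.18 and 14.5 FPKM, while NXF1 and KPNB1, furthest below, are at 126 and 57.5 FPKM.

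Across the 43 members, the genes with lower levels tended to have the higher ratios. The Spearman correlation of the ratio with mean FPKM was -0.41 in shDIS3L2 and -0.26 in shHNRNPU, against -0.03 and -0.08 over all genes. It was -0.42 and -0.22 over the 26 members with 1 name and the same bounds. With the length of the longest coding transcript the members' correlation was 0.29 and 0.25, against 0.09 and 0.09 over the 9403 of 11787 genes with a length. These are descriptions across genes, which share libraries and are not replicates, and the ratio and the mean level are computed from the same values.

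The genes called in any comparison, TPR, NUP98, NUP160 and XPOT, are shown with the 250 bases before their annotated starts, to set the promoters of the members that differed most side by side. The sequences are those of RefSeq (GRCh38.p14), which held 41 of the 44 members, not NUP43, KPNA4 and KPNB1. They run 5′ to 3′ on the strand of the gene, and capitals mark matches, on either strand, to the letters given below.
TPR (chr1:186375254-186375503, minus strand): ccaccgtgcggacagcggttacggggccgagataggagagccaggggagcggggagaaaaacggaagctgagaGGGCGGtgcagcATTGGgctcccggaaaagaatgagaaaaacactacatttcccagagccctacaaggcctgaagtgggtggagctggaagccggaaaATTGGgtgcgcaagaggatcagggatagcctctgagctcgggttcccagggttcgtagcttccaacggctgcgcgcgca
NUP98 (chr11:3797547-3797796, minus strand): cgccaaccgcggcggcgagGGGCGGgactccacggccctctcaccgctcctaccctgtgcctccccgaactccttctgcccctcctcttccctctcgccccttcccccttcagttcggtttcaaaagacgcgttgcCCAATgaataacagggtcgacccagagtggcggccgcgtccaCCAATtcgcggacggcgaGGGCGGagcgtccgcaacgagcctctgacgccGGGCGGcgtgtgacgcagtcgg
NUP160 (chr11:47848351-47848600, minus strand): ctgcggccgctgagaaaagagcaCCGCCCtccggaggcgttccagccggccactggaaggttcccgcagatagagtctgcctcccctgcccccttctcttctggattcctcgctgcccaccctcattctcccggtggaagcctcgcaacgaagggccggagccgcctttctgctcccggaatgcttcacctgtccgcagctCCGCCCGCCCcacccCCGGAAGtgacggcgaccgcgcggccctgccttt
XPOT (chr12:64404142-64404391, plus strand): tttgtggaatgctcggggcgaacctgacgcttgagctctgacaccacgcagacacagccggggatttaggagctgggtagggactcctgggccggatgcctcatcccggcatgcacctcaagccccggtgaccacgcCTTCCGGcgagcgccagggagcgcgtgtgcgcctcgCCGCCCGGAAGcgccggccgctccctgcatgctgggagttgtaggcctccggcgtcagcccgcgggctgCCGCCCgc

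Each of these promoters holds the GC box GGGCGG, 1 match in TPR, 3 in NUP98, 3 in NUP160 and 2 in XPOT. In NUP160 a pair of them overlap, and in XPOT 1 overlaps an ETS site. The NF-Y box CCAAT occurs in TPR and NUP98 with 2 matches each, and the ETS site CCGGAAG occurs once in NUP160 and 2 times in XPOT. Over the members, 58.5% of 41 promoters had a GC box and 34.1% an NF-Y box, against 56.0% and 34.5% of 15842 promoters of protein-coding genes. Unlike in the FPKM comparisons, those genes were not chosen by level in these cells, so the shares are not against expressed genes only. The ETS site was in 13 of 41 (31.7%), against 11.8% of all. These 13 were NUP35, NUP37, NUP50, NUP54, NUP88, NUP107, NUP160, NUP214, SEH1L, SEC13, XPOT, IPO4 and TNPO3. The E box CACGTG was in 14.6%, against 7.84%. The TATA box TATAAA was in 1 member, NXF1 (2.44%, against 9.23%), and the cyclic AMP element TGACGTCA in 2, NUP133 and NUP214 (4.88%, against 2.32%). The members' median GC content was 64.4%, against 62.4%. A match is a description of letters in this window and not evidence of binding.

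Among further genes of the pathway, taken from a second list of other pore, transport, mRNA export and lamina genes, 53 of 54 names were matched and all 53 were measured, with DDX19A and DDX19B counted as 2 names although they share 1 locus and its values. In shDIS3L2, 3 were called higher and 4 lower, and 46 neither, with a median log2 ratio of 0.10. Over all genes 8.95% were called higher and 7.58% lower there. THOC2, the largest subunit of the THO complex of mRNA export, stood at 4.48 FPKM (3.70 to 5.25) in control, against 12.3 (10.6 to 14.04) in shDIS3L2, and 7.69 (6.52 to 8.86) in shHNRNPU, a ratio of 1.28 ± 0.14 in shDIS3L2. SUN2, an inner nuclear membrane protein, stood at 45.7 FPKM (43.1 to 48.2), 113 (108 to 117) and 42.5 (40.2 to 44.9), high in shDIS3L2 alone, in a locus merged with DNAL4. The third, SYNE1, had a low level, at 0.868 FPKM (0.0397 to 1.70), 2.85 (1.78 to 3.92) and 1.05 (0.223 to 1.88). Its ratio of 1.04 ± 0.38 in shDIS3L2 passed the size for a call by less than its error. POM121, a membrane nucleoporin with a near-identical copy, was low in shDIS3L2 and high in shHNRNPU, at 13.5 FPKM (12.7 to 14.2), 5.09 (4.59 to 5.60) and 21.9 (20.8 to 22.95). The export genes THOC6 (log2 ratio -1.07) and DDX39B (-1.01, in a merged locus) were lower too, and the fourth, GLE1, was listed at 0 in shDIS3L2 and at 17.9 and 9.37 FPKM in control and shHNRNPU.

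In shHNRNPU, 0 of these 53 genes were called higher and 3 lower, and 50 neither, with a median of -0.04. Over all genes 8.32% were called higher and 7.46% lower there. PCID2, an mRNA export factor, stood at 30.3 FPKM (28.1 to 32.5) in control, against 21.8 (19.8 to 23.9) in shDIS3L2, and 14.0002 (12.4 to 15.6) in shHNRNPU. LMNB2, the lamin B2 gene merged with TIMM13, was at 386, 300.4 and 192 FPKM, and THOC1 was listed at 0 in shHNRNPU and at 13.2 and 12.5 FPKM in the others. A listed 0 can be a failed estimate. Against shDIS3L2, 2 were higher in shHNRNPU, POM121 and GLE1, and 4 lower, KPNA5, NXT1, THOC1 and SUN2. The shares over all genes were 10.2% and 10.5%. NXT1, the partner of NXF1, stood at 45.7, 54.4 and 25.4 FPKM, and KPNA5, an importin alpha, at 0.907, 2.62 and 0.634 FPKM. CSE1L, which returns importin alpha to the cytoplasm, was not called but stood at 54.0 FPKM (51.7 to 56.4), 103 (99.02 to 108) and 56.7 (53.7 to 59.6), high in shDIS3L2 alone, and is named here after its values were seen.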

How the data were processed

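RNA-seq of 3 PLC libraries, 1 per group, was used. Per the labels' protocols, TRIZOL-extracted and DNase-treated total RNA was the input of an NEBNext Ultra RNA library kit, which is not described as stranded, so overlapping antisense genes cannot be told apart. Per the submitters' processing notes, TopHat2 2.0.12, Cufflinks 2.2.1 and build hg19 were used. The authors deposited FPKM per gene with a lower and an upper bound, taken here as 95% (a level not given in the sources used here), and no counts. Genes were assembled per library, per the identifiers in the deposited files, so bounds can differ and overlapping genes can be merged: 9 of 44 members were merged and 11 had unlike bounds. The bounds of NXF1, KPNA1 and NUP155 differed most.

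Tables were joined by gene name (Python 3.11.15, pandas 2.3.3), names on the same rows counting as 1 gene in the counts over all genes, and genes with a mean of at least 1 FPKM entered. The pseudocount was 1. A call needed a log2 ratio of 1 to either side, separate intervals and status OK. Standard errors came from the interval widths. The call rule was tried on simulated data, with planted changes beyond the size for a call and noise drawn from the deposited intervals alone. Those data hold no spread between cultures, so they do not show how reliable the calls are. Genes described with all values were those called, the 5 highest and 5 lowest per comparison, and the most and least abundant of each role. Promoters were those of RefSeq GRCh38.p14, read for their letters alone, and transcript lengths those of GENCODE 29. Members, lists and rules were chosen with earlier results of these data known. Other pseudocounts, filters, scalings, loci and thresholds were tried.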

Additional observations from a re-analysis of the deposited data

How the results depend on the processing

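No paired analysis was possible because each group has 1 library and no test was run. For the same reason no library could be left out. Median-of-ratios rescaling added 1 lower call in shDIS3L2 (NXF1) and 2 in shHNRNPU (TNPO3 and XPOT), where it also left 12 members above control in place of 21 and a median of 0.066 in place of 0.24. On that scale 9.04% and 9.52% of all genes were called lower in shDIS3L2 and shHNRNPU. A pseudocount of 5 left 1 higher call in shDIS3L2 (NUP98) and 0 lower calls between the knockdowns, against 4.70% and 6.15% of all genes. A pseudocount of 0.1 gave 4 higher calls in shHNRNPU, against 11.2%. Over the 26 members with 1 name and the same bounds, 0 were called higher in shDIS3L2, against 8.88% of the 6736 such genes. There 11 lay above and 5 below control, against 34.6% and 24.6%. In shHNRNPU 12 lay above and 9 below control, against 35.4% and 24.2%. Between the knockdowns 1 was called lower (XPOT), against 10.9%, with 5 above and 8 below, against 31.0% and 29.9%. These counts also fall because fewer members enter. At a threshold of 1.5-fold, 9 were higher and 3 lower in shDIS3L2 (19.04% and 14.97% of all genes), 10 and 3 in shHNRNPU (19.9% and 13.8%), and 3 and 4 between the knockdowns (20.4% and 18.7%). Where another setting moved a value, the cause was not tested. The other 94 of 114 values for the whole set stayed within 1.5 times the count or 2 standard errors. So did 346 of 384 ratios of single genes, and no ratio whose intervals were separate changed sign. For a median, the error used was the median error of single members, 0.078 in shDIS3L2, and not an error of the median itself. By that wide margin the shDIS3L2 median counted as unchanged, although rescaling took it from 0.12 to 0.0073. Summing loci and leaving out genes listed at 0 changed no count or median of the members. Those settings therefore add to the shares of unchanged values without testing them. Single ratios such as that of NUP98 were also the same with summed loci. Low levels limit RANBP2 and wide intervals KPNA2, NUP153 and XPO5.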
